A study of Homo sapiens with 60 samples.

Results

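The 35 genes described here encode the folding and quality control machinery of the endoplasmic reticulum (ER): 10 chaperones and their cofactors, 2 lectin chaperones, 7 disulfide enzymes, 11 components of ER-associated degradation, 4 proteins of translocation into and exit from the ER, and the transcription factor XBP1. They were taken as a fixed list of symbols, which was chosen with earlier results of these data known. Each matched 1 of the 60675 Ensembl identifiers in the count table. All 35 passed the filter on low counts and were among the 16445 genes tested. HT29, an established line from a human colorectal adenocarcinoma, was exposed for 24 h to plant extracts or to the DMSO vehicle, and RNA was sequenced from 60 libraries. The decoctions, each a mixture of several herbs, were water extracts of Palmul-tang and of Sibjeondaebo-tang, and Poria Cocos, Atractylodis Rhizoma, Glycyrrhizae Radix, Panax Ginseng and Angelicae Gigantis Radix were ethanol extracts. High, medium and low doses were 500, 100 and 20 µg/mL, except for Glycyrrhizae Radix (350, 70 and 14 µg/mL) and Angelicae Gigantis Radix (320, 64 and 12.8 µg/mL). For extracts with an IC20 under the usual top concentration, the study's text gives the IC20 as the high dose. Each vehicle or dose group had 3 libraries, apart from Angelicae Gigantis Radix with 1 library per dose. The labels do not say whether the 3 libraries of a group came from separate cultures, so p-values measure the spread between these libraries. The extracts are called Poria, Atractylodes, Glycyrrhiza, Ginseng and Angelica in what follows.

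Proteins that enter the secretory pathway are threaded into the ER, folded with the help of lumenal chaperones, given disulfide bonds and sugar chains, and then packed into COPII vesicles. Chains that do not fold are trimmed, pulled back into the cytosol and ubiquitinated, a route named ER-associated degradation (ERAD). When unfolded chains build up, the sensors IRE1, PERK and ATF6 start the unfolded protein response, in which XBP1 and ATF6 raise many of these 35 genes and PERK acts through ATF4 and CHOP.

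Promoters of the classical targets carry short elements read by ATF6 and XBP1, and 4 of them are shown here because their genes were among the members that changed most or are the standard markers of the response. The sequences are RefSeq's (GRCh38.p14), 200 bases ending at the base before the annotated start, read 5′ to 3′ on the gene's strand. Capitals mark exact matches to the ER stress elements, named ERSE and ERSE-II, and in HYOU1 also to the element UPRE. Near matches stay in lower case, so the capitals need not show every element of a promoter.
HSPA5 (chr9:125241344-125241543, minus strand): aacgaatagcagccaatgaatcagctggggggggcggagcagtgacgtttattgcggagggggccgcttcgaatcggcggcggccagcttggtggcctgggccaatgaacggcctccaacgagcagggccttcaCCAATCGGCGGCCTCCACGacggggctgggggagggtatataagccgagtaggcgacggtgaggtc
HSP90B1 (chr12:103930210-103930409, plus strand): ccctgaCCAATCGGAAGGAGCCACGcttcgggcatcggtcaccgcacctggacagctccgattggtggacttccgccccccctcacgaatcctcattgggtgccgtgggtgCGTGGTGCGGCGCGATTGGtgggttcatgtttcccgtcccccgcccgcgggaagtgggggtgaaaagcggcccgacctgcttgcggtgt
HYOU1 (chr11:119057206-119057405, minus strand): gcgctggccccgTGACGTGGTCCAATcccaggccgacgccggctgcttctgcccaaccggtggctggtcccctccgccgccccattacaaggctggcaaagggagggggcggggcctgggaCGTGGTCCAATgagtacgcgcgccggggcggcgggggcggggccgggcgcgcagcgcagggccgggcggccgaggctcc
HERPUD1 (chr16:56931942-56932141, plus strand): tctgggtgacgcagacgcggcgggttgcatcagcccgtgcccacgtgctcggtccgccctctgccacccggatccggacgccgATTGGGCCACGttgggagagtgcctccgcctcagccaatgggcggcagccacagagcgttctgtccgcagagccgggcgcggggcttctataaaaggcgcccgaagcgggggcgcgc

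The windows searched ran from 250 bases before to 50 bases after each RefSeq start, on both strands, and 31 of the 35 members had an entry. ERSE was searched as CCAAT and CCACG with any 9 bases between them and was found in 7 of those 31 members (22.6%), against 25 of all 27305 gene symbols (0.0916%). Here and for the other elements a gene counts once if any of its starts has a match. The 7 members were HSPA5, HSP90B1, CALR, CANX, PDIA6, XBP1 and CRELD2. ERSE-II, searched as ATTGG and CCACG with any 1 base between them, was in 3 of 31 members (9.68%), namely HYOU1, HERPUD1 and SDF2L1, against 0.0696% of all symbols. UPRE, searched as TGACGTGG, was in HYOU1, TXNDC5 and DNAJC10, against 0.927% of all symbols, and in HYOU1 it overlaps one of the ERSE-II matches. ERSE and ERSE-II both hold CCAAT or its complement ATTGG next to CCACG, and CCAAT alone was in 27 of 31 members (87.1%) and in 39.7% of all symbols. Per window, the shares of all 35116 promoters were 0.0769% for ERSE, 0.0541% for ERSE-II, 0.729% for UPRE and 34.6% for CCAAT. Shorter stretches from 3 further members show how the bases between the capitals, which mark the fixed letters, vary, each read on the strand that carries the match.
XBP1: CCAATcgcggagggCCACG
PDIA6: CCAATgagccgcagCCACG
CRELD2: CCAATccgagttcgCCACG
Only exact matches were counted, so elements that differ in a fixed letter are missed. A match describes the letters of a window and does not show that a factor binds there. The elements are those of the classical targets, and the list holds such targets. The larger shares among members are therefore not an independent result, and the counts over all symbols include the members.

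The libraries held between 19.31 M and 29.62 M counts (median 25.06 M). Mitochondrially encoded genes took 10.24% ± 1.36 (SD, n = 3) of counts in vehicle and between 6.83% and 8.83% in the means of the 18 treated groups of 3. All 12 colonic epithelial markers were detected in every library of the 19 groups of 3, at levels that differed widely: EPCAM ranged from 506 to 618 CPM (counts scaled by library size) and KRT8 from 6073 to 7683 CPM, but CDX1 from 0.37 to 1.42, CDX2 from 3.53 to 6.39, CDH17 from 3.23 to 6.16 and CEACAM5 from 5.05 to 17.8 CPM. Most of the 15 markers of other cell types were near 0, with COL1A2 at 0 in 54 of 57 libraries, CD3E in 56, CDH5 in 51 and HBB in 50. Higher were LYZ, at 1290 to 1711 CPM, and CD68, at 3.98 to 10.2 CPM, and COL1A1 (0.72 to 1.95 CPM) and PECAM1 (0.97 to 2.43 CPM) were also above 0 in every library.

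Together, the 35 members took 0.713% ± 0.0223 of the counts in vehicle (SD, n = 3). The share was 1.02% to 1.057% in the 3 libraries of high-dose Glycyrrhiza and 0.688% to 0.7837% in each of the other libraries, Angelica included. The high-dose Glycyrrhiza libraries did not overlap with any other.

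**Figure D1:**
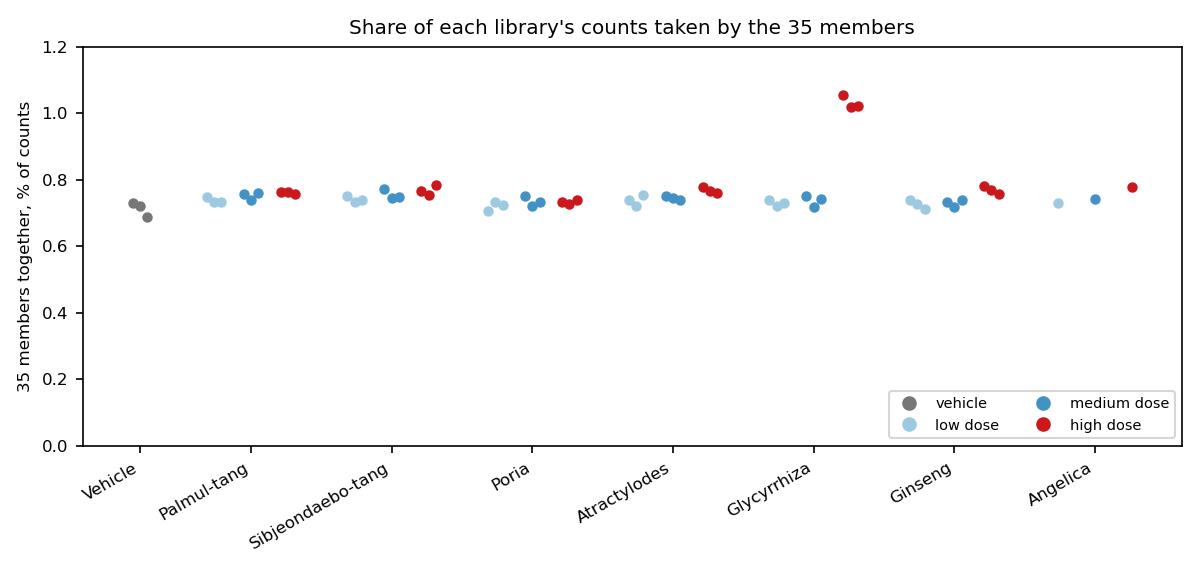
Share of each library's counts taken by the 35 members together (y axis, % of counts), with 1 point per library, grouped by extract and coloured by dose. The 3 high-dose Glycyrrhiza libraries sit at 1.02% to 1.057%, above every other library.

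Levels of the members in vehicle spanned a wide range when divided by exon length. The most abundant were CALR, a lectin chaperone, at 234 CPM per kb, PDIA3 at 182, HSP90B1 at 151, P4HB at 140 and CANX at 138 CPM per kb. At the other end DERL3 reached 0.128 CPM per kb, with at most 33 counts in any library. SIL1, a nucleotide exchange factor of the chaperone HSPA5, was at 1.56 CPM per kb and DNAJB9 at 4.14 CPM per kb. Low counts widen the error of DERL3 most, and its values are given with that limit.

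At 350 against 14 µg/mL of Glycyrrhiza, nearly the whole list was higher. In edgeR's quasi-likelihood test with Benjamini-Hochberg adjustment over all genes, 32 of the 35 members were called at an adjusted p under 0.05, all of them higher, while 24.9% of all tested genes were called in this comparison (14% higher). The median log2 fold change was 0.54 over the members and -0.01 over all genes tested. The high-dose libraries lay above all 3 low-dose libraries for 33 members and below them for 0. Among all tested genes, 19.6% lay above and 18% below in the same way. For 29 members the 3 high-dose Glycyrrhiza libraries lay above every one of the other 54 libraries of the fit, which held for 6.99% of all genes.

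**Figure D2:**
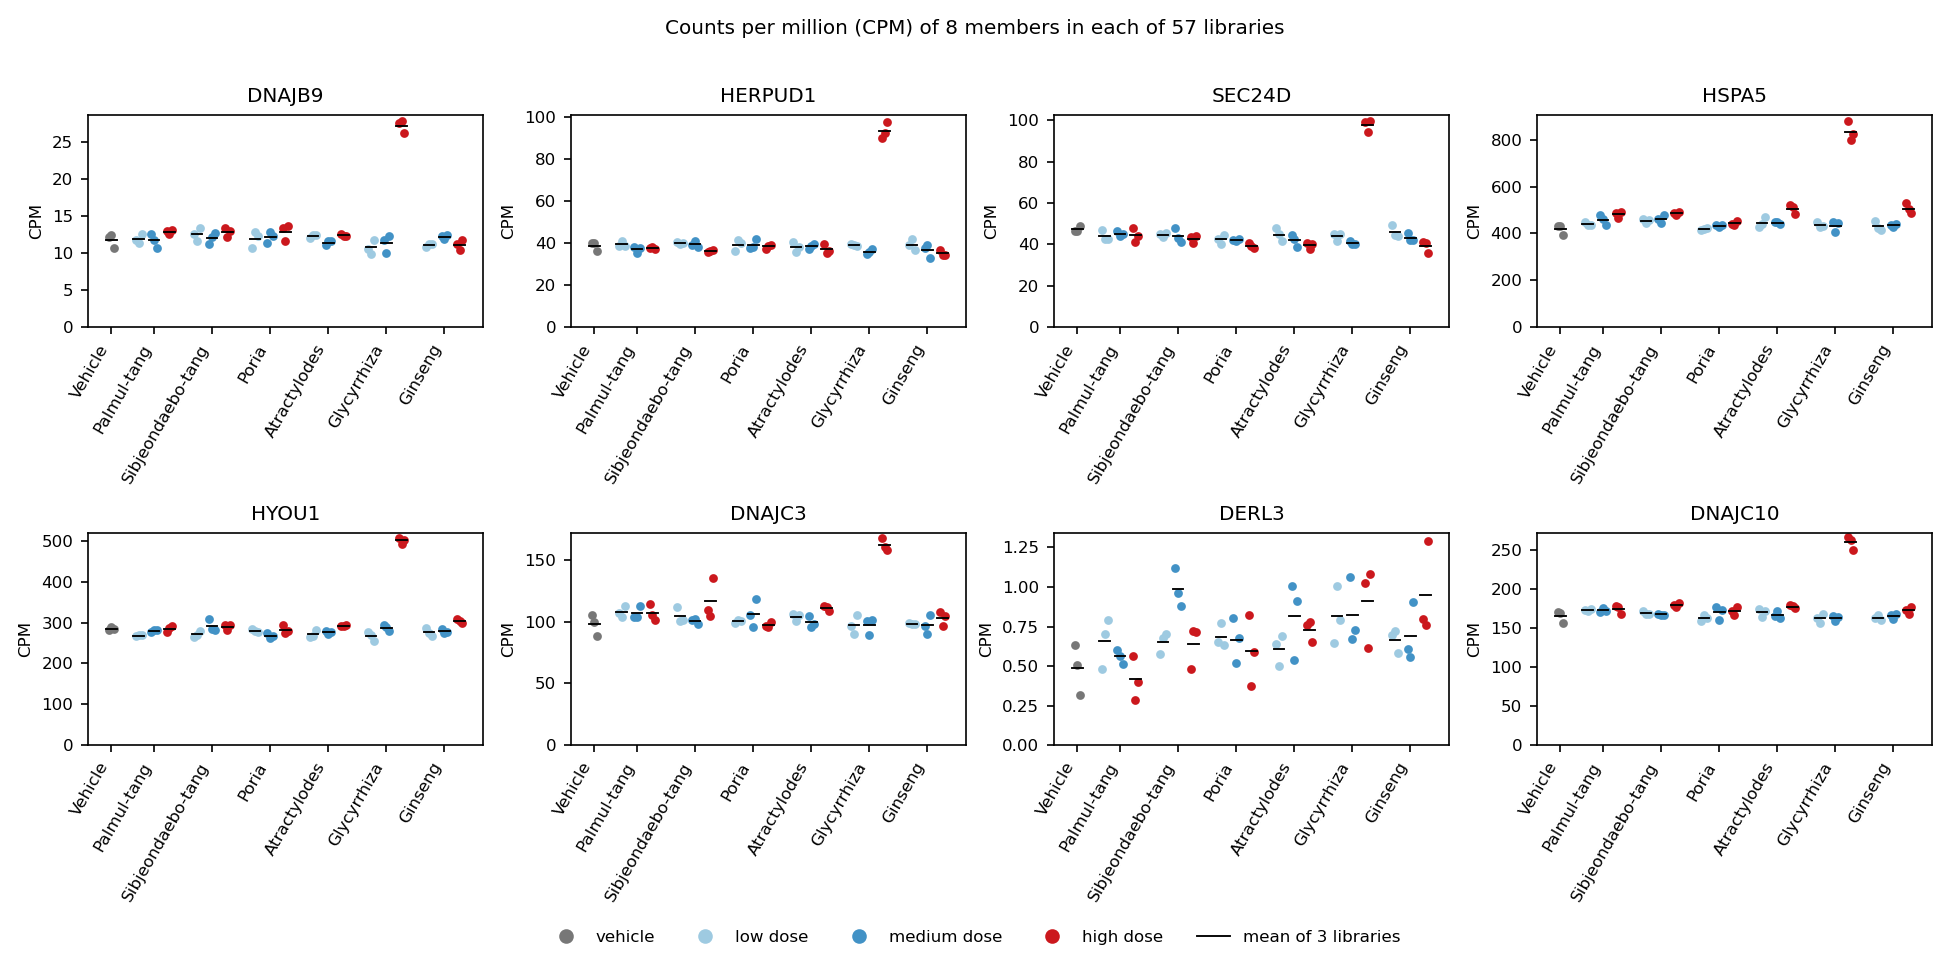
CPM (y axes, linear, from 0) of the 8 members with the largest dose effect in any extract, with 1 point per library, black bars for the means of 3 libraries, and colours for dose. In 7 panels the 3 high-dose Glycyrrhiza points stand apart from all others; DERL3, with few counts, does not separate.

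Among the chaperones and their cofactors, 8 of 10 rose. HSPA5 (BiP), the main Hsp70 chaperone of the ER lumen and the repressor of the stress sensors, measured 881.5, 796.7 and 825.4 CPM in the 3 high-dose libraries against 446.7, 427.1 and 433.0 CPM at the low dose. Its values in the other 54 libraries ran from 394.0 to 528.7 CPM, so the groups did not overlap, and the log2 fold change was 0.94 ± 0.04 (SE; adjusted p = 1.74e-23). DNAJB9 (ERdj4), a cochaperone that brings HSPA5 to misfolded chains and to IRE1, rose the most of all members, from 10.6, 9.89 and 11.8 CPM to 27.5, 27.7 and 26.2 CPM. Its log2 fold change was 1.33 ± 0.07 (adjusted p = 1.95e-20), and the highest of the other 54 libraries reached 13.6 CPM. HYOU1, a large Hsp70 relative that also serves HSPA5 as nucleotide exchange factor, went from 277.5, 270.7 and 255.1 CPM to 507.5, 492.8 and 503.0 CPM (log2 fold change 0.90 ± 0.03, adjusted p = 2.10e-26).

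DNAJC3, a J-domain cochaperone also known as an inhibitor of PERK, measured 168.2, 160.5 and 158.3 CPM at the high dose and 96.9, 90.2 and 105.6 CPM at the low dose. That is a log2 fold change of 0.73 ± 0.07 (adjusted p = 6.60e-12), although 1 library of high-dose Sibjeondaebo-tang reached 135.4 CPM. HSP90B1 (GRP94), the ER form of Hsp90, was at 1101, 989.7 and 1033 CPM against 696.9, 669.8 and 678.1 CPM, a log2 fold change of 0.61 ± 0.03 (adjusted p = 3.10e-20). MANF, a small stress-induced protein that can bind HSPA5, rose by 0.61 ± 0.06 on the log2 scale, the cochaperone DNAJB11 by 0.56 ± 0.03 and CRELD2 by 0.54 ± 0.08.

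SDF2L1 and SIL1 were the 2 chaperone cofactors that did not pass the test. SDF2L1, a partner of DNAJB11, measured 13.3, 13.02 and 11.5 CPM at the high dose and 10.4, 10.3 and 11.2 CPM at the low dose. The libraries did not overlap, and the log2 fold change was 0.24 with a 95% interval of 0.05 to 0.44 (adjusted p = 0.0647). For SIL1 it was 0.16 ± 0.10 (adjusted p = 0.282), with overlapping libraries.

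Both lectin chaperones, which hold glycoproteins by their trimmed sugar chains, rose: the membrane-bound CANX by 0.57 ± 0.04 and the soluble CALR by 0.46 ± 0.03 on the log2 scale. All 7 disulfide enzymes rose as well, between 0.31 ± 0.04 for TXNDC5 and 0.68 ± 0.03 for DNAJC10. DNAJC10 (ERdj5), a reductase with a J domain that opens wrong disulfides, went from 163.0, 155.8 and 167.7 CPM to 266.2, 262.9 and 249.3 CPM (adjusted p = 4.07e-21). P4HB, the founding protein disulfide isomerase, rose by 0.54, and PDIA3, which works with CANX and CALR, rose by 0.45. PDIA4 rose by 0.59, PDIA5 by 0.47 and PDIA6 by 0.37.

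Of the 11 ERAD components, 10 rose, with a wide spread. HERPUD1, a membrane scaffold of the HRD1 ubiquitin ligase complex, was at 90.3, 92.4 and 98.0 CPM against 39.6, 39.0 and 38.6 CPM, a log2 fold change of 1.26 ± 0.05 (adjusted p = 2.16e-24). Its highest value in the other 54 libraries was 42.2 CPM. The ligase itself, SYVN1 (HRD1), rose by 0.66 ± 0.06, its adaptor SEL1L by 0.55 ± 0.04 and the mannosidase-like EDEM1 by 0.57 ± 0.08. SELENOS, which ties the segregase VCP to the ER membrane, rose by 0.54 and SELENOK by 0.46. EDEM2, the lectin OS9 and the rhomboid-like DERL2 and DERL1 had the smallest called changes, 0.19 ± 0.06, 0.16 ± 0.04, 0.17 ± 0.06 and 0.14 ± 0.05, with adjusted p values of 0.0229, 0.00125, 0.034 and 0.033. DERL3 measured 1.03, 0.62 and 1.08 CPM at the high dose and 0.64, 1.01 and 0.79 CPM at the low dose, and its log2 fold change of 0.19 ± 0.27 did not pass (adjusted p = 0.665).

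The 4 members of translocation and exit all rose. SEC24D, a cargo adaptor of the COPII coat, was at 99.3, 94.3 and 99.5 CPM against 45.1, 41.4 and 45.1 CPM, a log2 fold change of 1.15 ± 0.06 (adjusted p = 6.33e-22). The translocon channel subunit SEC61A1 rose by 0.49 ± 0.04, SEC61B by 0.35 ± 0.10 and SSR1, a subunit of the translocon-associated TRAP complex, by 0.57 ± 0.03. XBP1, whose spliced form drives many of the other members, rose from 210.2, 208.5 and 207.5 CPM to 302.8, 287.1 and 295.9 CPM (log2 fold change 0.50 ± 0.04, adjusted p = 3.62e-14). Counts per gene do not tell the spliced XBP1 form from the unspliced one.

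**Figure D3:**
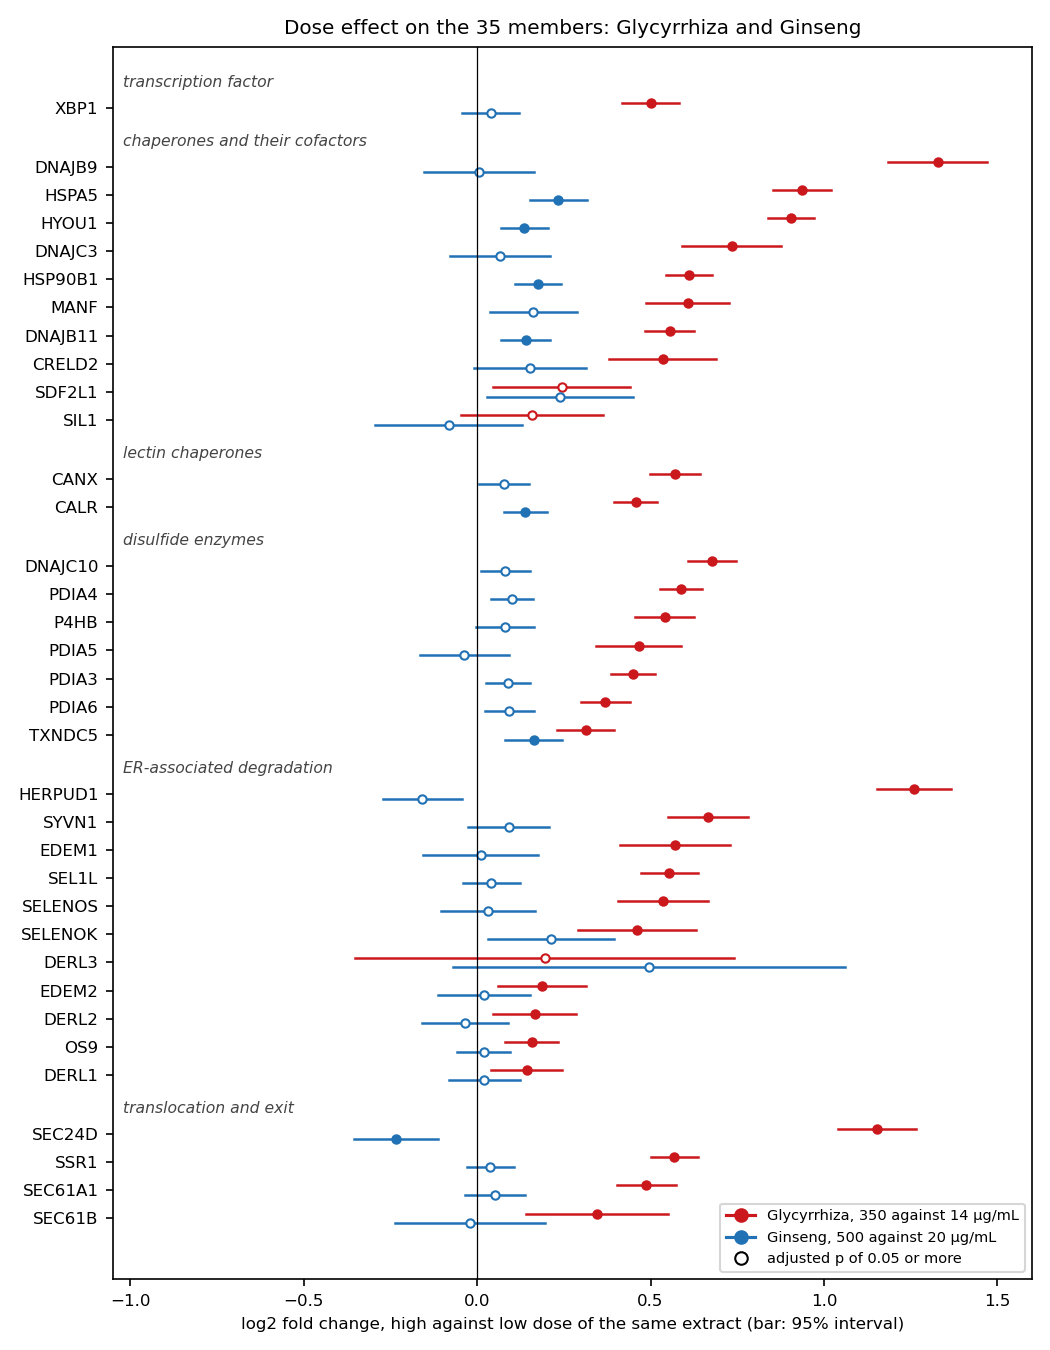
Log2 fold change of each member between the high and the low dose (x axis; bars are 95% intervals) for Glycyrrhiza (red) and Ginseng (blue), with members on the y axis grouped by role. Filled points passed an adjusted p of 0.05: 32 for Glycyrrhiza, all to the right of 0, and 7 for Ginseng.

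Calls among the smallest changes depended on single libraries and on the choice of fit. Without each of the 6 Glycyrrhiza libraries in turn, between 28 and 32 members were called, and the calls that were lost belonged to DERL1, DERL2, EDEM2 and SEC61B. DERL2 missed the threshold in 5 of those 6 fits, all but the one without high-dose library 1 (adjusted p from 0.0592 to 0.211). DERL1 missed it in 4, without library 2 or 3 of either dose (0.0648 to 0.167). EDEM2 missed it without high-dose library 2 or 3 or low-dose library 2 (0.0505 to 0.199), and SEC61B without high-dose library 2 or low-dose library 3 (0.0867 and 0.0553). With all libraries kept, DERL2 also missed it with DESeq2 (adjusted p = 0.0578) and in a fit on the 6 Glycyrrhiza libraries alone (0.0626). Without the filter on low counts, DERL2 (0.173) and EDEM2 (0.069) missed it. DNAJB9 shares its locus with PNPLA8 and THAP5 on the opposite strand, whose own counts over all libraries were 297% and 323% of those of DNAJB9. Both were also higher at the high dose, by 0.49 and 0.29 on the log2 scale, and the strand setting of the counting is unknown here, so the value of DNAJB9 is uncertain to that extent. SYVN1 overlaps FAU on its own strand, which had 215% of its counts and a log2 fold change of 0.06 (adjusted p = 0.664). On the opposite strand it overlaps MRPL49 (143%, log2 fold change -0.17, adjusted p = 0.0183). Opposite-strand genes also exceeded the counts of DERL3 (SMARCB1, 9590%), SIL1 (MATR3, 550%, and SNHG4, 192%) and CRELD2 (ALG12, 122%), none of them called. PDIA5 overlaps SEC22A on its own strand (103%), also not called. The unknown strand setting limits the opposite-strand cases too.

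The middle dose of Glycyrrhiza, 70 µg/mL, showed none of this. Against 14 µg/mL, 0 members were called by edgeR's quasi-likelihood test and 0% of all genes, with 5 members at an unadjusted p under 0.05, and DESeq2 called 0 members too. The median log2 difference of the members was -0.00. HSPA5 measured 447.7, 406.3 and 443.2 CPM at this dose, HERPUD1 34.99, 35.9 and 37.1 CPM and DNAJB9 11.7, 9.96 and 12.3 CPM, and the libraries of HSPA5 and DNAJB9 overlapped with those of the low dose. For HERPUD1 they lay below the low dose (log2 difference -0.12, adjusted p = 0.779). The other 5 extracts also had 0 members called between medium and low dose by both tools, where 0% to 0.00608% of all genes were called by edgeR. At an unadjusted p under 0.05 stood 1 member for Palmul-tang, 8 for Sibjeondaebo-tang, 1 for Poria, 3 for Atractylodes and 2 for Ginseng.

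High-dose Glycyrrhiza was also compared with vehicle, a comparison that shares its high-dose libraries with the one above. Here 34 of 35 members were higher and 0 lower (34.3% of all genes called, 18.8% higher and 15.5% lower), with a median log2 fold change of 0.55. DERL1 was the member not called, at 0.11 ± 0.05 (adjusted p = 0.0833). SDF2L1 stood at 0.89 ± 0.11 and SIL1 at 0.46 ± 0.11 in this comparison, both called. DERL3 was called at 0.90 ± 0.31, with overlapping libraries and few counts. With the mitochondrial share of counts as a covariate, 33 members were called, and 4750 of all genes in place of 5642.

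Ginseng, whose sample names start with the same number as those of Glycyrrhiza, moved few members and by less. Libraries that share this first number are called a numbered set here, and the labels do not say what it stands for. Between 500 and 20 µg/mL, 7 members were called, 6 higher and 1 lower, against 2.52% of all genes (1.29% higher and 1.23% lower), and the median over the members was 0.08. HSPA5 measured 528.7, 502.3 and 485.3 CPM at the high dose and 451.7, 421.0 and 416.0 CPM at the low dose, without overlap (log2 fold change 0.23 ± 0.04, adjusted p = 0.000244). HSP90B1 rose from 695.3, 693.3 and 694.0 CPM to 783.3, 805.7 and 762.3 CPM (0.18, adjusted p = 0.000606). TXNDC5 rose by 0.16, CALR, HYOU1 and DNAJB11 by 0.14 each. SEC24D went the other way, from 49.4, 44.5 and 44.3 CPM to 41.1, 40.7 and 35.9 CPM, and fell by 0.23 on the log2 scale (adjusted p = 0.0193). HERPUD1 was at -0.16 and DNAJB9 at 0.01, neither called. The high-dose Ginseng libraries lay above all low-dose ones for 14 members (7.73% of all genes) and below them for 1 (7.93% of all genes).

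These Ginseng calls rest on the error shared across all groups. Without the filter on low counts, 3 members were called. With the low-dose library 1 or the low-dose library 3 left out, 4 members were called. A fit on the 6 Ginseng libraries alone called 0, with adjusted p of 0.0585 for HSPA5 and 0.114 for HSP90B1.

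The dose effects of the 2 extracts were then compared directly. The difference between the Glycyrrhiza and the Ginseng dose effect was called for 25 members, each with the larger value in Glycyrrhiza, while 12.9% of all genes were called (8.08% with the larger value in Glycyrrhiza). It was 1.42 ± 0.08 for HERPUD1, 1.39 ± 0.08 for SEC24D and 1.32 ± 0.11 for DNAJB9 on the log2 scale. HSPA5 differed by 0.70 ± 0.06 and HYOU1 by 0.77 ± 0.05. For SDF2L1 the difference was 0.00 ± 0.14 (adjusted p = 0.992), and for TXNDC5 0.15 ± 0.06 (adjusted p = 0.0798). The doses differ between the extracts, 350 and 14 against 500 and 20 µg/mL, so this compares the contrasts as run and not equal concentrations. By the rule in the study's text, 350 µg/mL would be the IC20 of Glycyrrhiza, while Ginseng stayed at the usual top concentration. The contrasts may therefore differ in toxicity as well, and its part in the difference was not tested.

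Atractylodes had 3 members called between 500 and 20 µg/mL, all higher (3.95% of all genes called, 1.93% higher). HSPA5 measured 520.9, 513.3 and 484.2 CPM against 426.8, 438.2 and 472.1 CPM, without overlap, a log2 fold change of 0.18 ± 0.04 (adjusted p = 0.00393). CANX rose by 0.13 (adjusted p = 0.0206) and DNAJB11 by 0.11 (adjusted p = 0.0482). The count was 1 without high-dose library 2 or without low-dose library 2, 6 without low-dose library 3, 6 with DESeq2, 1 without the filter on low counts, 7 with the replicate number as a block, and 0 in a fit on these 6 libraries alone. The high-dose libraries lay above all low-dose ones for 13 members (10.4% of all genes) and below them for 1 (10.5%). HSPA5 kept its call in each fit that left out 1 library and missed it in the fit on 6 libraries (adjusted p = 0.0666).

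Poria, Palmul-tang and Sibjeondaebo-tang had 0 members called between high and low dose by edgeR's quasi-likelihood test. All genes were called at 1.86%, 0.152% and 0.371%, and 4, 8 and 10 members had an unadjusted p under 0.05. DESeq2 also called 0 members in each of these 3 comparisons. HSPA5 was at 0.08 in Poria, 0.13 in Palmul-tang and 0.10 in Sibjeondaebo-tang on the log2 scale, each with a standard error of 0.04. The high-dose libraries lay above all low-dose ones for 7 members in Poria (9.3% of all genes), 11 in Palmul-tang (7.11%) and 6 in Sibjeondaebo-tang (6.76%). They lay below for 1 member in Poria (9.44%), 1 in Palmul-tang (6.79%) and 2 in Sibjeondaebo-tang (6.68%). No member passed the test of a difference in dose effect between Palmul-tang and Sibjeondaebo-tang (0 members and 0% of genes called, 3 members at an unadjusted p under 0.05) or between Poria and Atractylodes (0 members, 0.158% of genes, 2 members at an unadjusted p under 0.05). DESeq2 called 0 members in both.

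**Figure D4:**
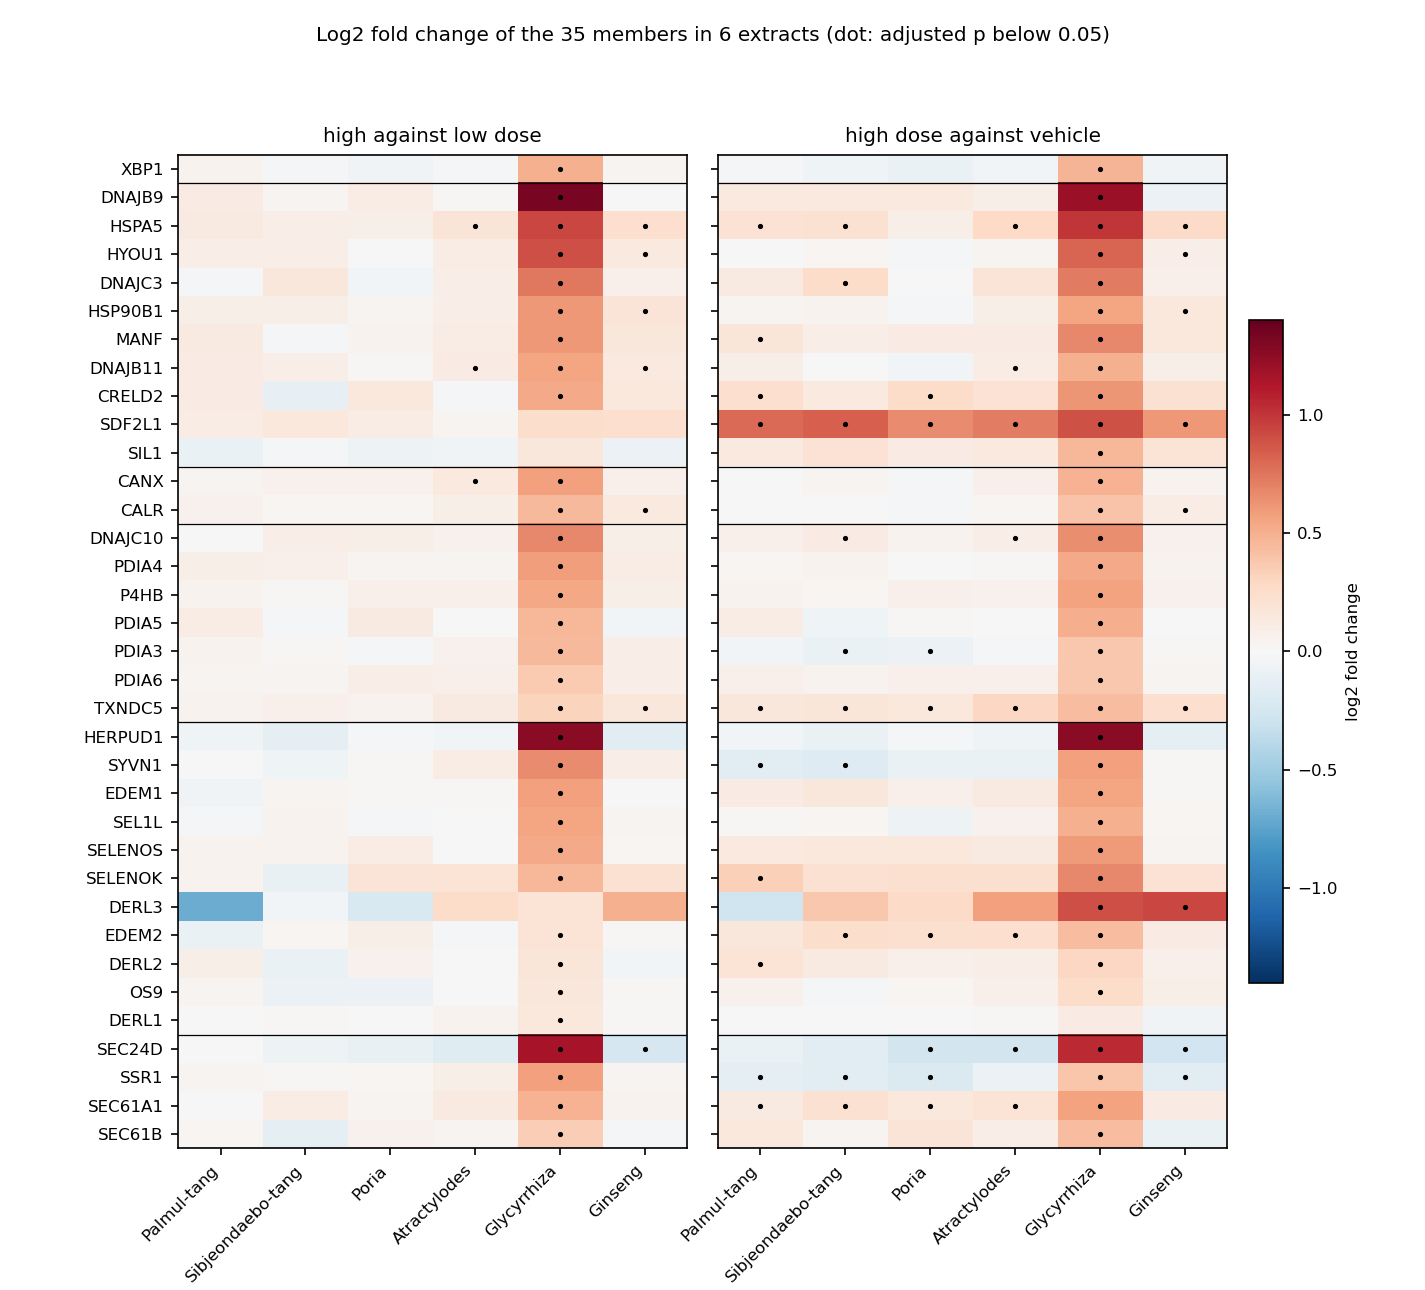
Log2 fold change (colour scale, red higher, blue lower) of the 35 members, in rows by role, for 6 extracts in columns; the left panel compares high with low dose and the right panel high dose with vehicle, and dots mark an adjusted p below 0.05. The Glycyrrhiza column is red throughout in both panels, and the SDF2L1 row carries a dot for all 6 extracts against vehicle and for none between doses.

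Against vehicle, the 5 other extracts had far fewer members called than Glycyrrhiza at the high dose. At the high dose 10 members were called for Palmul-tang (21.7% of all genes), 10 for Sibjeondaebo-tang (27.4%), 8 for Poria (25%), 8 for Atractylodes (22.5%) and 9 for Ginseng (18.9%). At the low dose the counts were 6 (20.4%), 9 (20%), 3 (18.5%), 7 (22.4%) and 2 (13%), and 5 for Glycyrrhiza (17.6%). Out of 35 members, the high-dose counts for Sibjeondaebo-tang, Poria and Atractylodes are near the shares of all genes. Most low-dose counts are near or below them. At the high dose more members, and also more of all genes, were higher than lower. The counts were 8 and 2 for Palmul-tang (11.7% and 9.95% of all genes) and 7 and 3 for Sibjeondaebo-tang (14.2% and 13.1%). For Poria they were 5 and 3 (13.4% and 11.6%), near the shares of all genes. They were 7 and 1 for Atractylodes (11.9% and 10.6%) and 7 and 2 for Ginseng (10.3% and 8.57%). The 12 comparisons share the 3 vehicle libraries, so the extracts are not independent of one another here.

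SDF2L1 differed from vehicle in every extract. It measured 6.98, 7.64 and 5.71 CPM in vehicle. At the low doses its log2 fold change against vehicle was 0.37 ± 0.11 for Ginseng and between 0.56 and 0.69 for the other 5 extracts, and at the high doses it ran from 0.61 for Ginseng to 0.89 for Glycyrrhiza. All 12 values were called, while none of the 6 comparisons of high with low dose called it. SSR1 was lower than vehicle at the low dose of all 6 extracts, between -0.22 and -0.16. TXNDC5 was higher at the high dose of all 6, from 0.14 in Poria to 0.43 in Glycyrrhiza, though not in Palmul-tang, Sibjeondaebo-tang and Poria once the mitochondrial share was a covariate. Mean HSPA5 was 418.6 CPM in vehicle and ran from 443.9 CPM in Poria to 834.5 CPM in Glycyrrhiza at the high dose. It was called higher than vehicle at the high dose of every extract but Poria, and at the low dose of Sibjeondaebo-tang. With that covariate, edgeR's test lost the calls for high-dose Palmul-tang (adjusted p = 0.211) and for high-dose and low-dose Sibjeondaebo-tang (0.0812 and 0.801).

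The mean mitochondrial share was higher in vehicle than in every treated group of 3, but single libraries overlapped. Vehicle library 1 stood at 8.91% and medium-dose Ginseng library 2 at 10.05%. The labels give all libraries, vehicle included, the same batch, but the sample names of vehicle carry no set number. A difference between sets and one between vehicle and extract therefore cannot be told apart. With the mitochondrial share as a covariate, high-dose counts fell from 10 to 2 for Palmul-tang, from 10 to 3 for Sibjeondaebo-tang and from 8 to 4 for Poria. All genes called fell from 3566 to 1348, from 4499 to 2197 and from 4114 to 2444 in the same fits. SDF2L1 then kept its call in 11 of the 12 comparisons, with values from 0.46 to 0.80, and stood at 0.28 for low-dose Ginseng (adjusted p = 0.138). That low-dose Ginseng value also missed the threshold without vehicle library 3 (adjusted p = 0.192), low-dose library 2 (0.0581) or low-dose library 3 (0.0516). Leaving out vehicle library 3 moved the high-dose counts to 5 for Palmul-tang, 6 for Sibjeondaebo-tang, 4 for Poria and 5 for Atractylodes. It moved the low-dose counts to 2 for Palmul-tang, 3 for Sibjeondaebo-tang, 2 for Glycyrrhiza and 1 for Ginseng. Vehicle library 2 had a like effect on low-dose Palmul-tang and low-dose Glycyrrhiza, with 3 members each. Single treated libraries mattered as well: the count was 6 and 5 for high-dose Palmul-tang without its library 1 or 3, and 4 for low-dose Sibjeondaebo-tang without its library 1. It was 3 for low-dose Atractylodes without its library 3, 2 for low-dose Glycyrrhiza without its library 3, and 1 for low-dose Ginseng without its library 2 or 3.

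Angelica had 1 library per dose, so its values carry no test. Between 320 and 12.8 µg/mL, 0 members moved by 1.5 fold or more in either direction, where 3.11% of all genes were that much higher and 7.52% lower. Against the vehicle mean the high dose also had 0 such members (3.31% of genes higher, 6.52% lower). HSPA5 measured 468.7 CPM at the high dose (95% Poisson interval 459.2 to 478.3, which covers counting error only) and 399.6 CPM at the low dose (391.9 to 407.4). HERPUD1 was at 35.4 and 37.0 CPM and SEC24D at 38.9 and 46.7 CPM. The median log2 ratio of the members was 0.08 against low-dose Angelica.

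Other genes of the same pathways were followed in the Glycyrrhiza comparison of 350 with 14 µg/mL. There 14% of all genes were called higher and 10.9% lower. Their lists were also chosen with earlier results of these data known. All 12 genes of the list named for the PERK, ATF4 and CHOP arm rose, with a median log2 fold change of 1.44. Whether PERK acted on them was not tested. CHAC1, a glutathione-degrading enzyme induced through ATF4, rose by 2.69 ± 0.12, asparagine synthetase ASNS by 1.97 ± 0.05 and NUPR1 by 1.95 ± 0.34. These changes were larger than that of any member. NUPR1 was expressed at a low level, with a mean of 1.68 CPM at the high dose. Among 11 sensors and related membrane-bound factors, 6 rose and 1 fell. CREB3L2 rose by 1.22 ± 0.06, the IRE1 gene ERN1 by 0.79 ± 0.07 and the PERK gene EIF2AK3 by 0.70 ± 0.05, and CREB3L1 fell by 0.53 on the log2 scale. ATF6, singled out after its value was seen, rose by 0.12 ± 0.04 (adjusted p = 0.0354).

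Lists next to the members in the secretory route moved to differing degrees. Of 20 other COPII and ER exit genes, 18 rose and 0 fell, led by MIA2 (0.56), TMED10 (0.43) and the KDEL receptor KDELR3 (0.41). In the translocon, signal peptidase and TRAP list 15 of 21 rose and 1 fell, with SSR3, SEC11C and TRAM1 at 0.51, 0.50 and 0.49. Of 16 tested genes of N-glycosylation and glycan trimming, 11 rose, with the cargo receptor LMAN1 at 0.50, OSTC at 0.47 and MAGT1 at 0.46. Of 13 other ER stress-linked genes 10 rose, led by HSPA13 (0.95), ARFGAP3 (0.69) and GFPT1 (0.48). Only 5 of 23 other ERAD genes were called, all higher, with ERLEC1 at 0.56, UBE2J1 at 0.36 and EDEM3 at 0.30. Of 24 other ER oxidoreductases and prolyl isomerases 9 rose and 1 fell, and the leading 2, GPX8 (1.76 ± 0.28) and ERO1B (1.54 ± 0.35), are expressed at 0.63 and 0.44 CPM at the low dose. Of 8 ER-phagy receptors 4 rose, with CCPG1 at 0.85, CALCOCO1 at 0.19 and RETREG2 at 0.11.

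Cytosolic heat shock genes, an ER-independent arm of protein folding, did not move as a list: 4 of 15 rose, 3 fell and the median was -0.06. HSPA1B rose by 0.25 and BAG3 by 0.21, and HSPA4L fell by 0.20 on the log2 scale. Markers of the intestinal secretory lineage, whose cells make and export much protein, moved in both directions with 2 of 13 tested markers higher and 7 lower. SPINK4 fell by 2.03, ATOH1, the factor that specifies the lineage, fell by 1.52 and REG4 fell by 1.46 on the log2 scale. Means at the high dose were only 0.18 CPM for SPINK4 and 1.59 CPM for ATOH1. The higher 2, named after their values were seen, were KLF4 (0.78) and MUC5AC (0.36). The summed level of the 15 markers of that list ran from 300.2 to 311.9 CPM at the high dose and from 282.6 to 327.3 CPM at the low dose. MUC5AC makes up most of that sum, with means of 198.4 and 154.8 CPM, so the sum does not show the markers that fell. CLCA1 and ZG16 were at 0 in 42 and 34 of 57 libraries. Among colonic epithelial markers 3 of 12 rose and 1 fell (CEACAM5 1.27, KRT20 0.78, VIL1 -0.63), and of 4 tested markers of other cell types CD68 alone was called, at 0.60. The part of these markers in the members' values was not tested. In bulk libraries, a changed share of one kind of cell and a changed level per cell cannot be told apart.

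**Figure D5:**
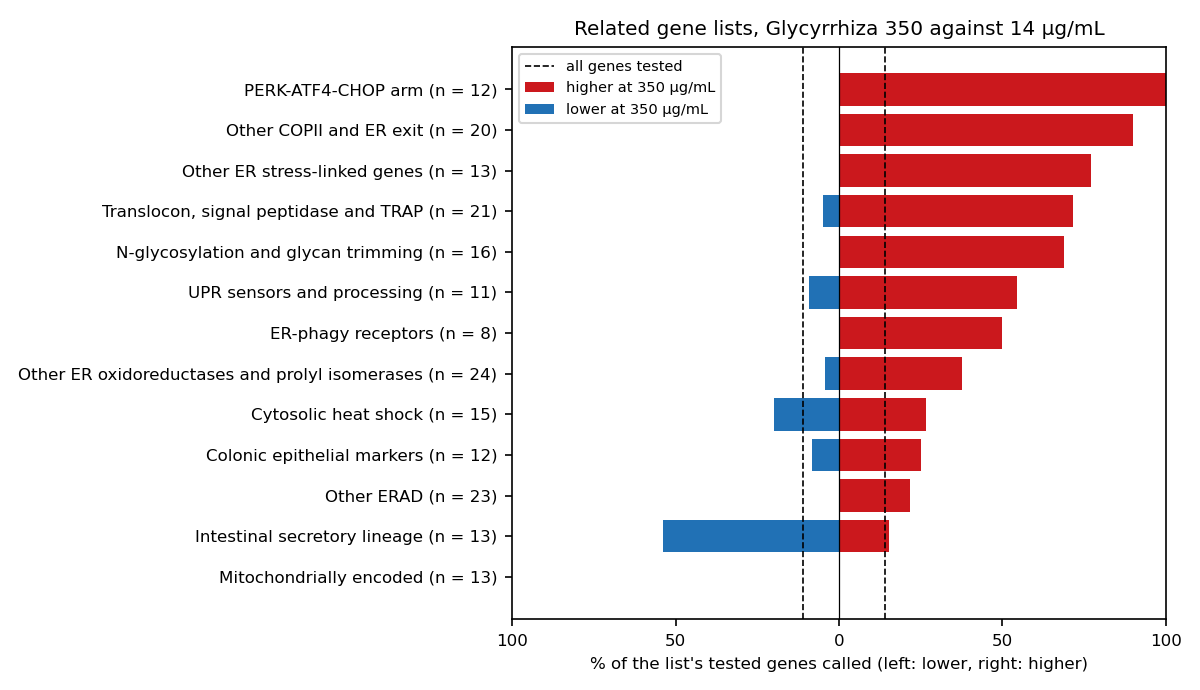
Share of each related gene list called in Glycyrrhiza at 350 against 14 µg/mL (x axis, % of the list's tested genes; red bars to the right are higher, blue bars to the left lower), with lists on the y axis and dashed lines at the shares of all genes tested, 14% higher and 10.9% lower. The bar of the list named for the PERK, ATF4 and CHOP arm reaches 100% with all 12 genes higher, and the secretory lineage list has its longer bar on the lower side.

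In the other extracts, few genes of these lists were called between high and low dose. CREB3L1 fell by 0.37 in Atractylodes, by 0.30 in Ginseng and by 0.27 in Poria on the log2 scale. From the list named for the PERK, ATF4 and CHOP arm, ASNS rose by 0.26 in Atractylodes and 0.24 in Poria, and TRIB3 by 0.25 in Poria. Ginseng was the extract with 3 cytosolic heat shock genes higher, HSPH1 (0.16), HSP90AA1 (0.14) and HSP90AB1 (0.11). Among the members it had 4 chaperones and cofactors and 1 lectin chaperone, CALR, called higher.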

How the data were processed

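HT29 RNA was made into strand-specific libraries read as 100 bp pairs, per the labels' protocols. The submitters' processing notes name FastQC 0.11.9, Trim Galore 0.6.5, STAR 2.7.3a and RSEM 1.3.3 and the human build hg38; the annotation release and the strand setting of the counting are not given in the sources used here. The authors deposited expected counts per Ensembl gene, not normalized; between 7.7% and 9.78% of a library's values had decimals and were rounded to whole numbers. The table has 213 further columns of other samples, not used here. Symbols were matched for 56558 of 60675 identifiers. Gene positions and exon lengths came from GENCODE 29 and promoters from RefSeq.

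Genes were filtered with filterByExpr. All 57 libraries of the 19 groups of 3 entered 1 edgeR 4.0.16 quasi-likelihood fit (R 4.3.3; TMM factors 0.9559 to 1.031, group as the only term), with p-values adjusted by Benjamini-Hochberg over all genes of each of 27 comparisons, and called under 0.05. CPM use TMM library sizes. Angelica was given as ratios with a prior count of 2. Alternatives were RLE factors, no filter, DESeq2 1.42.0, separate fits, a replicate block, the mitochondrial share as covariate, and each library left out. The code was tested on simulated counts. Replicates of every group differed by more than sampling noise (lowest chi-square 2.4 per df).

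The 35 members and the 14 related lists were chosen with earlier results of these data known. Values per library are given for the 8 members with the largest change between high and low dose in any extract and for HSP90B1, XBP1 and SDF2L1; up to 3 called genes per list are named by size. Wortmannin and LY294002 samples were not analysed here. The DMSO percentage of the vehicle differs between the labels and the series' text.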

Additional observations from a re-analysis of the deposited data

Results flagged for a closer look

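The dose effects of Glycyrrhiza and Ginseng, tested against each other within 1 numbered set, differed for 25 of the 35 members (edgeR's quasi-likelihood test, Benjamini-Hochberg adjusted), each larger in Glycyrrhiza. Of all genes tested, 12.9% were called, 8.08% with the larger value in Glycyrrhiza. Differences on the log2 scale for the members named by rule were 1.42 for HERPUD1, 1.39 for SEC24D, 1.32 for DNAJB9, 0.77 for HYOU1, 0.70 for HSPA5, 0.67 for DNAJC3, 0.60 for DNAJC10, 0.46 for XBP1 and 0.44 for HSP90B1. In each of these 9 the high-dose Glycyrrhiza libraries lay above all other libraries of the fit.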

How the results depend on the processing

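RLE factors moved none of the 27 member counts by over 1.5 times. Direction was followed only for members called in the main fit between high and low dose. Against vehicle it was followed only for the called values of SDF2L1, SSR1, TXNDC5 and HSPA5. None of these changed direction in any alternative run. For Glycyrrhiza between high and low dose the count was 28 to 32 over fits that left out 1 library, and 24 to 26 for its difference from Ginseng. Without the filter on low counts, Atractylodes had 1 and Ginseng 3 members called between high and low dose, and low-dose Glycyrrhiza 3 against vehicle. DESeq2 gave 6 for Atractylodes. In fits on only the groups compared, Atractylodes and Ginseng had 0 between doses; against vehicle, high-dose Sibjeondaebo-tang and Ginseng had 5 each, and low-dose Sibjeondaebo-tang, Glycyrrhiza and Ginseng had 3, 2 and 1. With the mitochondrial share in the model, high-dose Palmul-tang, Sibjeondaebo-tang and Poria had 2, 3 and 4 against vehicle, and low-dose Palmul-tang, Sibjeondaebo-tang, Atractylodes and Ginseng had 2, 2, 2 and 1. By library totals alone, 1 member passed 1.5 fold in Angelica against vehicle, and the median was 0.13. The cause of these shifts was not tested.

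Replicate numbers did not pair the libraries: in 0 of 12 comparisons were all 3 correlations of same-numbered libraries over 0.1. With the replicate block, Atractylodes had 7 members called between doses and low-dose Poria 5 against vehicle; the other 25 counts stayed within 1.5 times.

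Over fits that left out 1 library, counts between doses were 1 to 6 for Atractylodes and 4 to 7 for Ginseng. Against vehicle at the high dose they were 5 to 10 for Palmul-tang, 6 to 10 for Sibjeondaebo-tang, 4 to 8 for Poria and 5 to 11 for Atractylodes. At the low dose they were 2 to 7, 3 to 9, 2 to 4 and 3 to 7 in that order, 2 to 5 for Glycyrrhiza and 1 to 3 for Ginseng. Low counts limit DERL3 most, with at most 33 in a library.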
